A study of Mus musculus with 12 samples.

Results

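The mRNA of 10 endothelial marker genes was compared between mdx and control mouse hearts at 8 weeks and at 10.5 months. The genes are Vwf, Tie1, Tek, Kdr, Flt1, Pecam1, Cdh5, Eng, Esam and Nos3. They were found on the Affymetrix MOE430A array as the probe sets annotated to 1 of these genes alone, which gave 14 probe sets of the 22690 on the array. All 14 had a mean signal high enough to be tested, and a gene with several is described by the brightest of them, as are all 8852 genes tested. The 4 groups, with 3 arrays each, were mdx hearts at 8 weeks, control hearts at 8 weeks, mdx hearts at 10.5 months and control hearts at 10.5 months. Mdx mice carry a mutation in Dmd, the gene of dystrophin, in every cell of the body, and are a model of Duchenne muscular dystrophy. The labels name the other group only as control, give neither strain nor sex, do not say whether the arrays of a group came from separate animals, and carry a keyword naming extraocular muscle although titles and sources name heart. P-values therefore measure the spread between these samples, which may be technical.

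Endothelial cells line every blood vessel of the heart and are among its most numerous non-muscle cells. They sense vascular endothelial growth factor (VEGF) and angiopoietins through receptor tyrosine kinases, hold to each other through junction proteins, and release nitric oxide, which relaxes vessels. In dystrophin-deficient skeletal muscle, nitric oxide signalling and blood supply are known to be disturbed. In RNA from heart tissue, fewer cells of a type and less RNA per cell cannot be told apart.

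Signals are given in scaled units, after every array was brought to a trimmed mean of 500, and differences as log2(signal + 32), mdx minus control. Dmd checked the labels. Its signal was 263.8, 279.2 and 159.2 in mdx hearts at 8 weeks, against 606.6, 780.3 and 623.2 in control hearts. Its 10.5-month signal was 263.6, 286.1 and 195.2 in mdx hearts, against 838.9, 839.4 and 795.8 in control hearts. Dmd fell by 1.42 ± 0.20 at 8 weeks and by 1.63 ± 0.20 at 10.5 months on the log2 scale (SE, n = 3 each; limma adjusted p = 0.00596 and 0.012). The 10.5-month call was lost when control replicate 1, control replicate 2 or mdx replicate 3 of that age was left out (adjusted p between 0.055 and 0.0884), or when an atrial covariate was added, and the 8-week call when 8-week arrays were fitted alone. Log2 signals of arrays of a group correlated at 0.948 to 0.982. The 8 ventricular marker genes were all measured, with summed signals between 138000 and 433300 on the 12 arrays, and the 6 measured skeletal muscle markers summed to at most 483.7. On 4 arrays the 99th percentile of the deposited signal was above 40000, and these were mdx replicates 1 and 2 and control replicate 2 at 8 weeks, and mdx replicate 3 at 10.5 months. Control replicates 1 and 2 at 10.5 months stood apart in atrial genes. The atrial light chain Myl7 gave 269.8, 150.8 and 284.2 units in mdx hearts of that age, against 3554, 2216 and 130.5 in control hearts. Sln, or sarcolipin, an atrial regulator of the calcium pump, gave 25.5, 11.8 and 91.6 units in mdx hearts, against 2242, 1220 and 9.13 in control hearts.

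No endothelial marker passed the test between mdx and control hearts at either age, while most estimates lay below 0. At 8 weeks, 9 of the 10 log2 differences were negative, against 51.7% of all 8852 genes, and their median was -0.12, against -0.01 over all genes. Of all genes, 2.15% passed the threshold of an adjusted p below 0.05 at 8 weeks. At 10.5 months all 10 differences were negative, against 53.9% of all genes, with a median of -0.22, against -0.02 over all genes. Only 0.0678% of all genes passed at 10.5 months. At an unadjusted limma p below 0.05, Tie1 was lower at 8 weeks, 1 of 10 genes against 8.59% of all genes. At 10.5 months Vwf, Tie1 and Flt1 were lower by that measure, 3 of 10 genes against 4.55% of all genes.

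**Figure D1:**
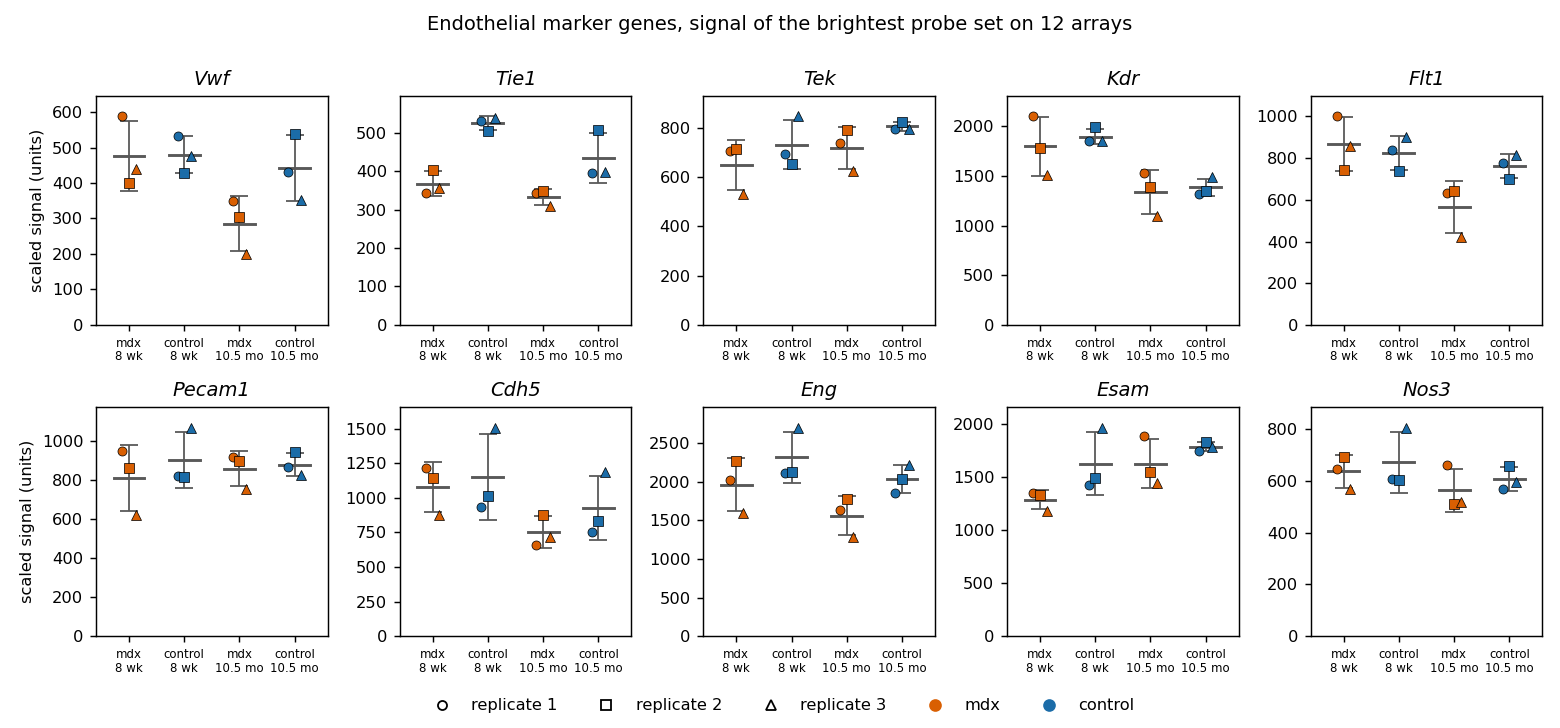
Scaled signal (units, axis from 0) of the brightest probe set of each of the 10 genes, with the arrays grouped as mdx and control hearts at 8 weeks and at 10.5 months. Each point is 1 array, bars are the mean and SD of 3 arrays. Tie1 is the gene in which every mdx array lies below every control array of the same age, and in the remaining genes the groups overlap at 1 or both ages.

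The count at 8 weeks rested on a single array. Without mdx replicate 3, only 4 of the 10 differences were negative (Tie1, Tek, Eng and Esam) and the median was 0.01. That array held the lowest signal of its group for 7 of the 10 genes. Control replicate 3 at 8 weeks was the highest of its group for 8 of the 10 genes, and without it 7 differences were negative with a median of -0.05. It also had the highest summed signal of the 3 measured erythroid markers, 4216 units, against 829.3 to 1539 on the remaining 8-week arrays, whose part in the result was not tested. At 10.5 months, mdx replicate 3 was the lowest of its group for 8 of the 10 genes, and without it 8 of 10 differences were negative with a median of -0.16. Its ratio of 3′ to 5′ actin signals was 1.44, against 1.05 to 1.29 on the remaining arrays, while its Gapdh ratio, 0.796, lay within theirs, 0.747 to 0.973, and the part of RNA quality in the result was not tested. With both control arrays of high atrial signal left out, 9 of the 10 differences at 10.5 months were negative with a median of -0.20, against -0.06 over all probe sets. None passed (smallest limma adjusted p = 0.984), and the lone control array was assumed to vary like the other groups.

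Tie1 encodes a receptor tyrosine kinase of endothelium that binds no angiopoietin strongly by itself and acts as the partner of Tek. Its signal at 8 weeks was 342.5, 403.4 and 356.3 in mdx hearts, against 531.4, 503 and 536.9 in control hearts. The 8-week groups did not overlap. The later signals were 342.5, 347.9 and 308.3 in mdx hearts, against 394.3, 507.8 and 396.6 in control hearts. Again the groups did not overlap. The difference was -0.48 ± 0.14 at 8 weeks (SE, n = 3 each; 95% interval -0.79 to -0.17), a 1.39-fold lower signal in mdx hearts, with limma adjusted p = 0.104. The 10.5-month difference was -0.34 ± 0.14 (95% interval -0.65 to -0.04), a 1.27-fold lower signal in mdx hearts, with limma adjusted p = 0.666. Tie1 was the only member with every mdx array below every control array of its age at both ages, as were 1.47% of all genes. Averaged over both ages its difference was -0.41 ± 0.10, with limma adjusted p = 0.116, so it did not pass there. The change of the mdx difference with age, 0.14 ± 0.20, did not pass either (limma adjusted p = 0.836).

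The promoters of Tie1, of its partner Tek and of Flt1 are printed because Tie1 was the member separated from controls at both ages, Tek is its partner receptor, and Flt1 was the member that passed a test with age. Each stretch runs from 250 bases before to 50 bases after the annotated start, 5′ to 3′ on the strand of the gene, from RefSeq on GRCm38.p6. RefSeq entries matched 5 of the 10 genes (Tie1, Tek, Kdr, Flt1 and Eng). Capitals mark GGAA or its reverse TTCC, the core letters bound by ETS factors, a family that is active in endothelium.
Tie1, chr4:118489800-118490099, minus strand: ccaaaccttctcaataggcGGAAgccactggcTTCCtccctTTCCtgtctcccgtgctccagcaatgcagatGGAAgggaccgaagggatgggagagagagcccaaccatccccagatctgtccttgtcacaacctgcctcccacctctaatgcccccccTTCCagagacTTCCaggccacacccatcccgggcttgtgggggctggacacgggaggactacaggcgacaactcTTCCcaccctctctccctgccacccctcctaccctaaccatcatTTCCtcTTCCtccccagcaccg
Tek, chr4:94739039-94739338, plus strand: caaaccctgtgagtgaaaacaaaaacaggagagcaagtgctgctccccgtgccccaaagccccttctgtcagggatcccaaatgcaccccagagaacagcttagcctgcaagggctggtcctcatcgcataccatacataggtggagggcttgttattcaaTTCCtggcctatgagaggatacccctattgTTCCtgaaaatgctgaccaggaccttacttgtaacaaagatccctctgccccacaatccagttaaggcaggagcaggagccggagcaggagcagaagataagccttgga
Flt1, chr5:147725962-147726261, minus strand: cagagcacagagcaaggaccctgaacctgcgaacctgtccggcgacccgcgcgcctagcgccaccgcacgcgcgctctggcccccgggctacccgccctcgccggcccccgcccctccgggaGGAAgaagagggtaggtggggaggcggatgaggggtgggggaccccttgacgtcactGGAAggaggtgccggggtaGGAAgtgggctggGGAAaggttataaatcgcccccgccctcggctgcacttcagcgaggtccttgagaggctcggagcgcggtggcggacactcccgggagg
The Tie1 stretch held 9 such matches, that of Tek 2 and that of Flt1 4, counted on both strands. Of 32851 RefSeq promoters of this length, 96.0% held at least 1 match, 84.6% at least 2, 46.3% at least 4 and 1.6% at least 9. The letters AGATAA (or their reverse complement), a GATA factor motif, occurred in Tek, as in 11.2% of all promoters. The palindrome TGACGTCA, a cAMP response element, occurred in Flt1, as in 1.8% of all promoters. None of the motifs contains another, though matches can share an end letter, and a match is a description of the letters only.

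Tek is the angiopoietin receptor that keeps vessels quiescent. At 8 weeks its signal was 704.3, 712.5 and 530.6 in mdx hearts, against 695, 654.7 and 846.1 in control hearts. These groups overlapped. At 10.5 months it was 737.8, 791.4 and 622.9 in mdx hearts, against 796.5, 825.5 and 794.3 in control hearts. The highest mdx array lay just below the lowest control array, so the groups did not overlap. The difference was -0.17 ± 0.16 at both ages (SE, n = 3 each; limma adjusted p = 0.625 at 8 weeks and 0.854 at 10.5 months), and the intervals, -0.52 to 0.18 and -0.51 to 0.18, include 0. Without mdx replicate 3 of the same age these were -0.04 at 8 weeks and -0.07 at 10.5 months.

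Kdr, also called VEGF receptor 2, carries most of the growth and survival signal of VEGF. At 8 weeks it gave 2101, 1788 and 1507 in mdx hearts, against 1852, 1991 and 1853 in control hearts. Kdr at 10.5 months gave 1530, 1389 and 1093 in mdx hearts, against 1317, 1353 and 1487 in control hearts. The mdx arrays spread on both sides of the controls at both ages. The differences were -0.09 ± 0.16 (interval -0.44 to 0.27) and -0.06 ± 0.16 (interval -0.41 to 0.29), with limma adjusted p = 0.82 and 0.956 (SE, n = 3 each). Without mdx replicate 3 of the later age the estimate turned to 0.07.

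Flt1, or VEGF receptor 1, binds VEGF tightly but signals weakly, and also exists as a secreted decoy. Its brightest probe set, 1419300_at, gave 1000, 741.6 and 856.7 in mdx hearts at 8 weeks, against 838.5, 736.8 and 901.3 in control hearts. Flt1 at 10.5 months gave 632.2, 641.9 and 420.8 in mdx hearts, against 775.3, 701.6 and 815.2 in control hearts. The groups overlapped at 8 weeks and were separate at 10.5 months, with mdx lower. The difference was 0.06 ± 0.18 at 8 weeks (limma adjusted p = 0.894) and -0.44 ± 0.18 at 10.5 months (SE, n = 3 each; interval -0.82 to -0.05; limma adjusted p = 0.666). The later difference was -0.25 without mdx replicate 3. The change of the difference between the ages, -0.50 ± 0.25, was the nearest to passing among the 10 genes, with limma adjusted p = 0.46.

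The remaining Flt1 probe sets gave negative differences at both ages. Probe set 1451756_at gave -0.12 ± 0.16 at 8 weeks and -0.30 ± 0.16 at 10.5 months, and 1454037_a_at gave -0.19 ± 0.21 and -0.42 ± 0.21. Neither passed at any age (smallest limma adjusted p = 0.698). No transcript form is named here for any of the 3 probe sets.

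Vwf encodes von Willebrand factor, the adhesive plasma protein stored in endothelial granules and also made by megakaryocytes. At 8 weeks it gave 587.5, 399.2 and 439.5 in mdx hearts, against 532.5, 428.1 and 477.3 in control hearts. Vwf at 10.5 months gave 350.1, 305.3 and 200.6 in mdx hearts, against 432.2, 539.3 and 353.3 in control hearts. The groups overlapped at 8 weeks. At 10.5 months the mdx arrays were all lower, the closest pair being 350.1 and 353.3 units. Vwf had the most negative 10.5-month difference of the 10 genes, -0.59 ± 0.22 (SE, n = 3 each; interval -1.05 to -0.13), with limma adjusted p = 0.631. Leaving out mdx replicate 3 gave -0.38. At 8 weeks the difference was -0.02 ± 0.22 (limma adjusted p = 0.97). The 8 measured platelet and megakaryocyte markers summed to 2926 to 3328 units in mdx hearts at 10.5 months and to 2643 to 2902 in control hearts. Pf4 was the largest term of each sum, at 1628 to 2113 units in mdx hearts and 1368 to 1532 in control hearts. Of the 7 tested markers 4 had positive and 3 negative differences, with a median of 0.01, and the part of these cells in the Vwf value was not tested.

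Endoglin (Eng) is a co-receptor for TGF-beta and BMP ligands on endothelium. Probe set 1417271_a_at gave 2024, 2271 and 1589 in mdx hearts at 8 weeks, against 2119, 2127 and 2700 in control hearts. Eng at 10.5 months gave 1631, 1777 and 1278 in mdx hearts, against 1852, 2035 and 2216 in control hearts. The later groups did not overlap, and the earlier ones did. The difference was -0.24 ± 0.18 at 8 weeks (limma adjusted p = 0.52) and -0.38 ± 0.18 at 10.5 months (SE, n = 3 each; interval -0.77 to 0.004; limma adjusted p = 0.674). Without mdx replicate 3 of the same age these were -0.10 and -0.25. Its other probe set, 1432176_a_at, gave -0.33 ± 0.16 at 8 weeks, where the groups did not overlap (limma adjusted p = 0.297), and -0.07 ± 0.16 at 10.5 months. The change of the difference with age was -0.14 ± 0.26 in the first probe set and 0.26 ± 0.22 in the second, and neither passed (limma adjusted p = 0.872 and 0.685).

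**Figure D2:**
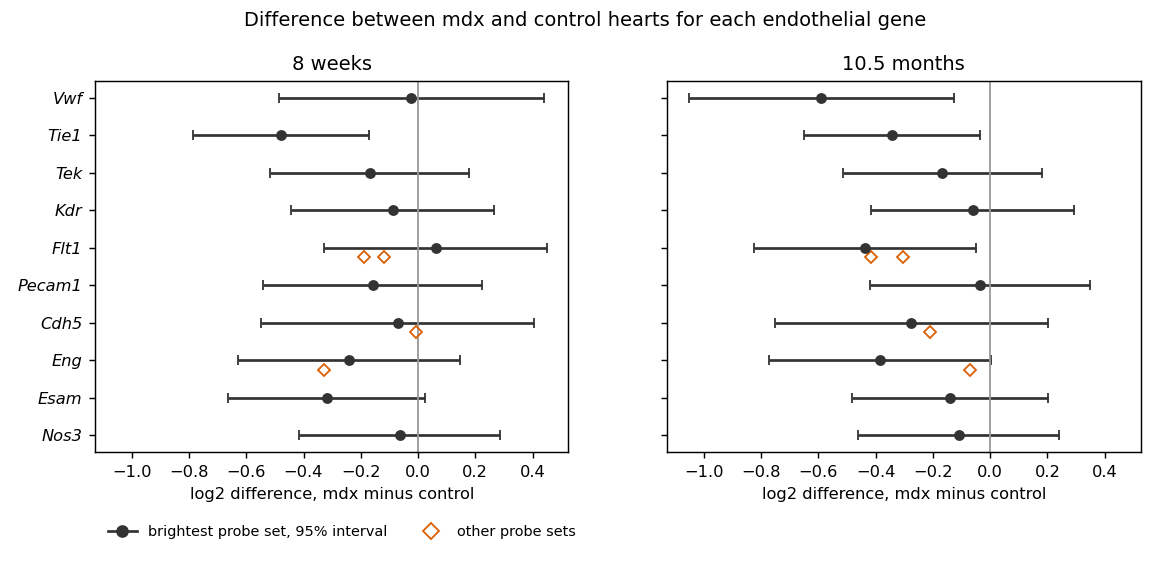
Log2 difference, mdx minus control, for each gene at 8 weeks (left) and 10.5 months (right). Filled points are brightest probe sets with 95% intervals from the limma fit over 12 arrays, and open diamonds are the 4 other probe sets, drawn without intervals. The Tie1 interval lies below 0 at both ages, and those of Vwf and Flt1 lie below 0 at 10.5 months, before adjustment over all probe sets.

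Esam is an adhesion molecule of endothelial tight junctions and platelets. At 8 weeks it gave 1349, 1333 and 1186 in mdx hearts, against 1426, 1496 and 1970 in control hearts. The groups did not overlap. Esam at 10.5 months gave 1891, 1555 and 1448 in mdx hearts, against 1747, 1836 and 1789 in control hearts, and the mdx arrays lay on both sides. The difference was -0.32 ± 0.16 at 8 weeks (SE, n = 3 each; interval -0.66 to 0.02; limma adjusted p = 0.317) and -0.14 ± 0.16 at 10.5 months (limma adjusted p = 0.88). It was -0.18 at 8 weeks without control replicate 3 and -0.06 at 10.5 months without mdx replicate 3. The mdx arrays of Esam were thus separate from the controls at 8 weeks alone.

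Cdh5 encodes VE-cadherin, the adhesive protein of endothelial adherens junctions. Its 8-week signal was 1219, 1146 and 875.8 in mdx hearts, against 931.9, 1013 and 1507 in control hearts. At 10.5 months it was 655.6, 878.6 and 717.5 in mdx hearts, against 753.4, 835.7 and 1189 in control hearts. The groups overlapped at both ages. Differences were -0.07 ± 0.22 (limma adjusted p = 0.902) and -0.28 ± 0.22 (SE, n = 3 each; limma adjusted p = 0.824), and the other Cdh5 probe set gave -0.01 ± 0.25 and -0.21 ± 0.25. Without control replicate 3 of the same age the first pair of values was 0.13 and -0.09.

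Pecam1, also called CD31, joins neighbouring endothelial cells and is also carried by platelets and leukocytes. It gave 949.2, 858.4 and 618.8 in mdx hearts at 8 weeks, against 819.5, 813.4 and 1066 in control hearts. At 10.5 months it gave 918.3, 896 and 753.4 in mdx hearts, against 862.8, 939.2 and 823.9 in control hearts. These groups overlapped at both ages. The differences were -0.16 ± 0.18 (limma adjusted p = 0.687) and -0.03 ± 0.18 (SE, n = 3 each; interval -0.42 to 0.35; limma adjusted p = 0.979). Leaving out mdx replicate 3 of each age gave 0.02 and 0.05.

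Nos3 encodes the nitric oxide synthase of endothelium. It gave 646.6, 694.1 and 569.4 in mdx hearts at 8 weeks, against 605.9, 602.2 and 805.7 in control hearts. At 10.5 months it gave 660.9, 509.5 and 518.4 in mdx hearts, against 568.3, 656.6 and 595 in control hearts. The groups overlapped at both ages, with differences of -0.06 ± 0.16 (interval -0.41 to 0.29; limma adjusted p = 0.876) and -0.11 ± 0.16 (SE, n = 3 each; interval -0.46 to 0.24; limma adjusted p = 0.907). The later value ran from -0.22 to -0.05 when single arrays were left out.

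**Figure D3:**
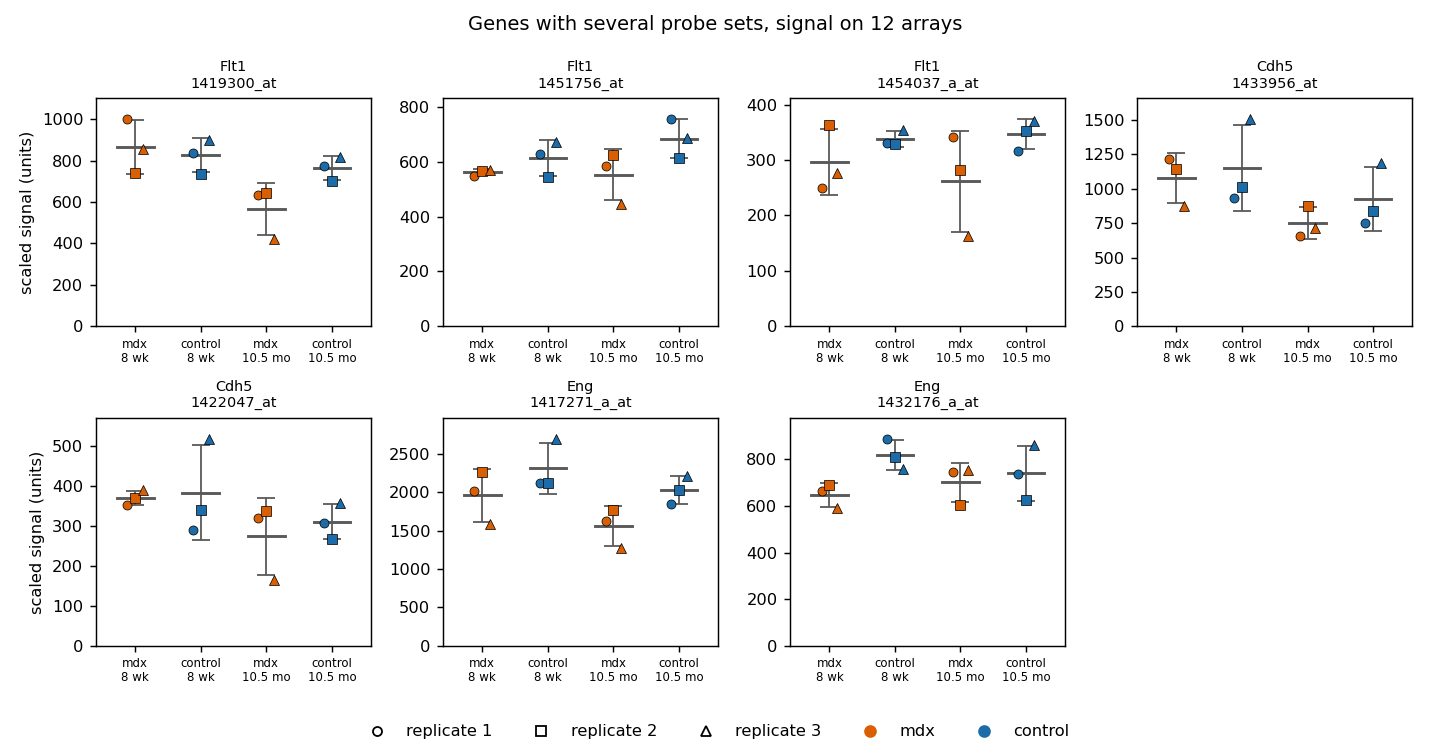
Scaled signal (units, axes from 0) of each probe set of the genes with several, Flt1, Cdh5 and Eng, by group. Points are arrays, bars are the mean and SD of 3. The second Eng probe set separates mdx from control hearts at 8 weeks, and the first one at 10.5 months.

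Tie1 and Esam were the members whose mdx arrays were all below the controls at 8 weeks, 2 of 10 genes, against 10.5% of all genes. At 10.5 months these were Vwf, Tie1, Tek, Flt1 and Eng, 5 of 10 genes, against 10.8% of all genes. For Flt1 and Eng this held in the brightest probe set only, and in their other probe sets the groups overlapped at 10.5 months. No member had all 6 mdx arrays below all 6 control arrays, as 0.587% of all genes did. Over both ages together the 10 differences ran from -0.41 to -0.08 with a median of -0.18, against -0.02 over all genes, and all 10 were negative, against 53.6% of all genes. None passed in limma, as 0.169% of all genes did, and 2 had an unadjusted p below 0.05 (Tie1 and Eng), and both were lower, as were 7.37% of all genes by that measure. For the change of the mdx difference with age, none of the 10 passed in limma and none had an unadjusted p below 0.05, against 0.158% and 12% of all genes. The 10 changes split into 5 positive and 5 negative.

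The values within the classes of arrays set by the 99th percentile of signal differed in sign at 8 weeks. Between the 1 mdx and 2 control arrays of the narrow class, the median difference of the 10 genes was -0.46. Between the 2 mdx and 1 control arrays of the wide class it was 0.13. Tie1 was negative in both, at -0.54 and -0.41. Within the narrow class at 10.5 months, 2 mdx against 3 control arrays, the median was -0.16 and that of Tie1 was -0.29. These within-class values have no test.

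Age was set side by side with genotype in the same genes. In mdx hearts, 10.5 months against 8 weeks, Flt1 fell 1.52-fold, to 565 ± 125 units against 866 ± 130 (SD, n = 3 each), with a log2 difference of -0.60 ± 0.18 and limma adjusted p = 0.0472. It was 1 of 10 genes called, against 11.3% of all genes called in either direction and 5.59% called lower. Without mdx replicate 3 of the later age the Flt1 difference was -0.42 with limma adjusted p = 0.15, and it passed in 6 of 22 alternative settings (adjusted p between 0.0212 and 0.251). Among arrays left out singly, the call was kept without control replicate 2 or mdx replicate 2 at 8 weeks or mdx replicate 1 at 10.5 months, and lost without any other. With the mean of its 3 probe sets the difference was -0.28 and did not pass. The remaining Flt1 probe sets gave -0.04 ± 0.16 and -0.20 ± 0.21 and did not pass.

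Vwf lay close to the threshold in the same comparison, at 285 ± 76.8 units in the later mdx hearts against 475 ± 99.1 in the earlier, with a difference of -0.69 ± 0.22 and limma adjusted p = 0.0542. It passed in 5 of 22 alternative settings. In mdx hearts 7 of 10 differences were negative, against 50.8% of all genes, with a median of -0.25, against -0.01 over all genes. Esam ran the other way, at 0.33 ± 0.16 (limma adjusted p = 0.187), with all later mdx arrays above all earlier ones, as for 15.5% of all genes.

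In control hearts no member passed between the ages in limma, as 0.158% of all genes did, and 1 had an unadjusted p below 0.05 and was lower, against 5.04% of all genes. That was Kdr, at 1385 ± 89.5 units at 10.5 months against 1899 ± 79.7 at 8 weeks (SD, n = 3 each), a difference of -0.45 ± 0.16 with limma adjusted p = 0.3. Every later control array lay below every earlier one, as for 11.3% of all genes. Kdr had a like estimate in mdx hearts, -0.42 ± 0.16 (limma adjusted p = 0.108). The 10 control differences had a median of -0.13, against 0.01 over all genes, and 8 were negative, against 49.1% of all genes.

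The markers varied partly together from array to array. The mean of the 10 log2 signals, each centred on its own mean, was 0.15, 0.06 and -0.17 in mdx hearts at 8 weeks, against 0.10, 0.06 and 0.34 in control hearts. At 10.5 months it was -0.10, -0.13 and -0.43 in mdx hearts, against -0.03, 0.09 and 0.06 in control hearts. Replicate 3 was the farthest from its fellows in 3 of the 4 groups, while the same mean over all genes stayed between -0.04 and 0.06 on every array.

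**Figure D4:**
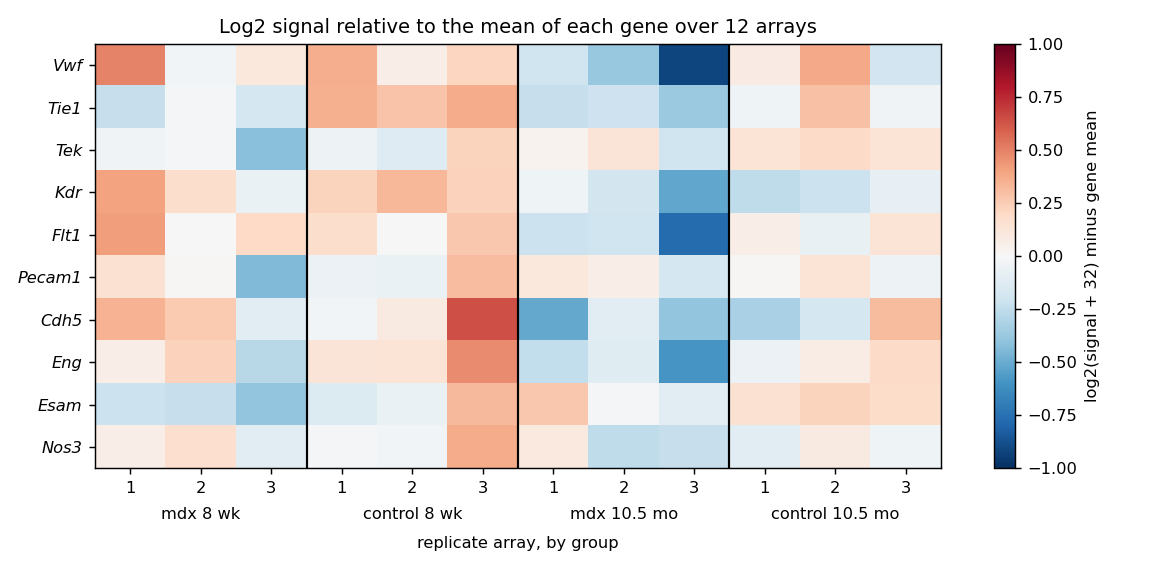
Log2(signal + 32) of each gene (rows) on each of the 12 arrays (columns, 3 a group), minus the mean of the gene over all arrays, from blue (lower) to red (higher). The column of mdx replicate 3 at 10.5 months is blue for most genes, and that of control replicate 3 at 8 weeks is red. Tie1 is pale or blue in every mdx column, and pale also in those of control replicates 1 and 3 at 10.5 months.

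Over the 12 arrays the 45 pairs of members had Pearson correlations from -0.20 to 0.86, with a median of 0.50 and 40 positive. After the group means were removed they ran from -0.15 to 0.94, with a median of 0.48. These arrays share groups, scaling and the brightness of single arrays, so the values describe this set only. Over the 12 arrays Vwf and Flt1 were the most alike pair (0.86, and 0.65 with group means removed), followed by Tek and Pecam1 (0.86 and 0.94). Kdr and Esam were the least alike over the 12 arrays (-0.20, and 0.49 with group means removed), and Vwf and Cdh5 with group means removed (-0.15). Over the 12 arrays Eng followed the mean of the other 9 most closely (0.94) and Esam least (0.24).

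The genes most like the mean of the 10 members over the 12 arrays, of 8842 others, were Hipk1 (r = 0.96), Gfm1 (0.93), Ptprb (0.92), Rasip1 (0.91) and Jarid2 (0.91). Ptprb encodes the endothelial phosphatase that acts on Tek, and Rasip1 a protein of endothelial tube formation. Rasip1 gave 254 ± 95.7 units in mdx hearts at 10.5 months against 485 ± 111 in control hearts, a difference of -0.89 ± 0.25 (SE) with limma adjusted p = 0.425. Ptprb gave 461 ± 96.1 against 589 ± 58.5 units, a difference of -0.35 ± 0.22 with limma adjusted p = 0.762. Hipk1, Gfm1 and Jarid2 are in none of the lists used here. Their differences at 10.5 months were -0.19 ± 0.16, -0.20 ± 0.16 and -0.32 ± 0.17 (limma adjusted p = 0.828, 0.816 and 0.701). Across the 34 other tested endothelial genes the median r was 0.19, against 0.01 over all genes.

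**Figure D5:**
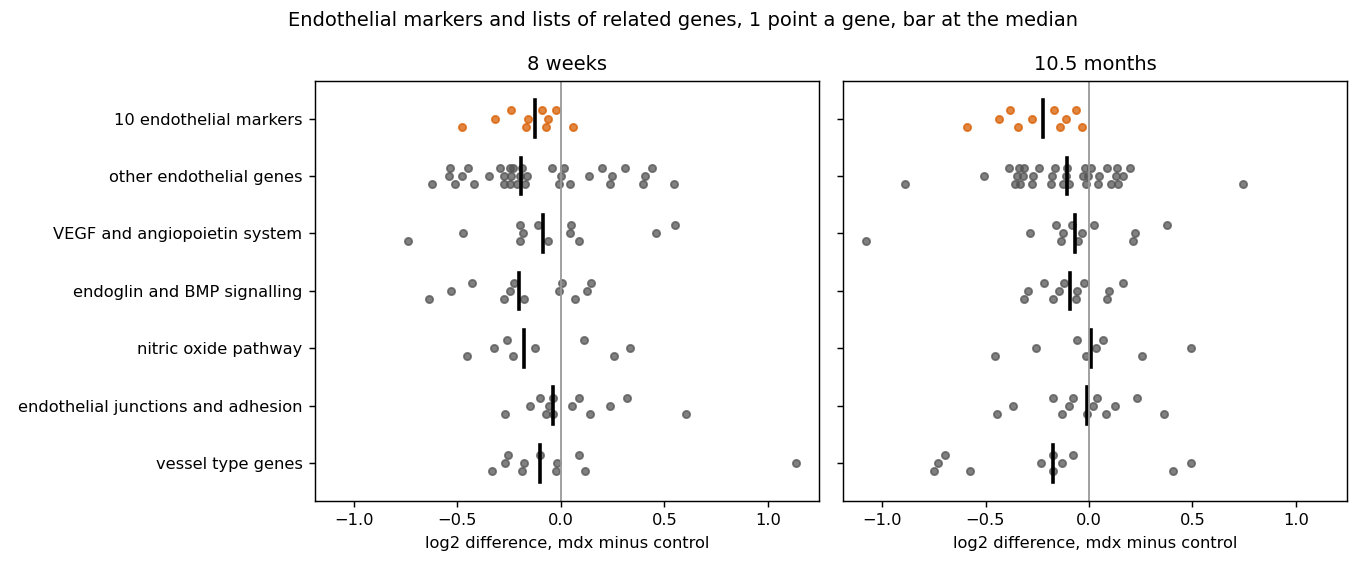
Log2 difference, mdx minus control, at 8 weeks (left) and 10.5 months (right) for the 10 endothelial markers and for 6 lists of related genes, 1 point a gene with a bar at the median. All 10 markers lie left of 0 at 10.5 months and 9 at 8 weeks. The point far to the right at 8 weeks among the vessel type genes is Jag1, at 1.14.

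The ligands and partners of the receptors, and genes of the same pathways, were described from lists of known members. Over all genes the medians were -0.01 at 8 weeks and -0.02 at 10.5 months, and 17.7% and 7.34% had an unadjusted limma p below 0.05 in either direction, the background for the counts of each list. Of 34 further endothelial genes none passed at either age, with 22 negative at 8 weeks (median -0.19) and 23 at 10.5 months (median -0.11). An unadjusted limma p below 0.05 in either direction was held by 6 of 34 and 3 of 34, close to the shares of all genes. Lower by that measure were 5 of 34 at 8 weeks and 2 of 34 at 10.5 months, against 8.59% and 4.55% of all genes. Averaged over both ages 25 of 34 were negative (median -0.10). By the same measure 8 were then lower and 1 higher, against 7.37% of all genes lower, and none passed (smallest limma adjusted p = 0.112). Nearest at 8 weeks was Mcam, an adhesion molecule of endothelium and pericytes, at 232 ± 43.6 units in mdx hearts against 373 ± 53.4 in control hearts (SD, n = 3 each; difference -0.62 ± 0.16, limma adjusted p = 0.0618). Of 12 genes of the VEGF and angiopoietin system none passed, with medians of -0.09 at 8 weeks and -0.07 at 10.5 months and 2 and 1 genes at an unadjusted limma p below 0.05. Angpt1, the ligand of Tek, was nearest at 8 weeks, at 224 ± 62.5 units in mdx hearts against 388 ± 44.8 in control hearts (difference -0.74 ± 0.22, limma adjusted p = 0.106). Epas1, a hypoxia-inducible factor of endothelium, was nearest at 10.5 months, at -1.08 ± 0.40 (limma adjusted p = 0.65).

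Of 12 genes of endoglin and BMP signalling none passed, with medians of -0.20 at 8 weeks and -0.09 at 10.5 months and 3 and 0 genes at an unadjusted limma p below 0.05. Tgfb1, the growth factor, was nearest at 8 weeks, at -0.53 ± 0.16 (limma adjusted p = 0.11), and Smad6, an inhibitor of BMP signals, was nearest at 10.5 months, at -0.30 ± 0.15 (limma adjusted p = 0.696). None of 8 genes of the nitric oxide pathway passed, with medians of -0.18 and 0.01 and 1 gene at each age at an unadjusted limma p below 0.05. Gch1, which makes the cofactor of nitric oxide synthases, gave -0.45 ± 0.19 at 8 weeks (limma adjusted p = 0.224). Ddah2, which breaks down inhibitors of nitric oxide synthases, gave 0.50 ± 0.20 at 10.5 months (limma adjusted p = 0.666). Of 13 genes of junctions and adhesion none passed, with medians of -0.04 and -0.01 and 1 and 2 genes at an unadjusted limma p below 0.05. Gja1, a gap junction gene that is abundant in myocytes, was nearest at 8 weeks (0.61 ± 0.19, limma adjusted p = 0.125), and Jup, a junction protein shared with myocytes, at 10.5 months (-0.44 ± 0.15, limma adjusted p = 0.594).

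Among 11 genes of arterial, venous and lymphatic endothelium, Jag1, a Notch ligand, rose at 8 weeks. It gave 352 ± 63.3 units in mdx hearts against 144 ± 41.5 in control hearts (SD, n = 3 each), a difference of 1.14 ± 0.25 with limma adjusted p = 0.0405. It passed in 12 of 23 alternative settings, and over all 23 its difference lay between 0.99 and 1.32 and its adjusted p between 0.0227 and 0.129. Among 8-week arrays, the call was lost without control replicate 1 or 3 or mdx replicate 2 or 3, and among 10.5-month arrays without any control replicate or mdx replicate 2. The median of the 11 genes was -0.10 at 8 weeks. None passed at 10.5 months, where 2 had an unadjusted limma p below 0.05, the median was -0.17 and Notch4, a Notch receptor of endothelium, was nearest at -0.69 ± 0.23 (limma adjusted p = 0.587).

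Markers of other cells were read beside these results. The smooth muscle genes Acta2 and Smtn fell at 8 weeks, by 0.80 ± 0.14 and 0.69 ± 0.16 on the log2 scale (limma adjusted p = 0.0184 and 0.0467). These were 2 of the 10 tested smooth muscle and pericyte markers, of which 4 had positive and 6 negative differences at 8 weeks (median -0.13). Acta2 passed in 19 of 23 alternative settings, but not without control replicate 1 or 3 at 8 weeks or with the replicate block (adjusted p up to 0.139 over the 23). Smtn passed in 6 of 23, and among arrays left out singly without mdx replicate 2 at 8 weeks or mdx replicate 3 at 10.5 months alone. Acta2 ran the other way at 10.5 months, at 0.64 ± 0.14 with every mdx array above every control array (limma adjusted p = 0.287). Most of its list did not: 3 of the 10 markers had positive and 7 negative differences at 10.5 months (median -0.31). The change of the mdx difference of Acta2 with age passed, at 1.44 ± 0.20 (limma adjusted p = 0.0196). Between the ages Acta2 fell by 1.16 ± 0.14 in control hearts (limma adjusted p = 0.00505). There 5 of the 10 markers had positive and 5 negative differences (median 0.06). All 11 measured smooth muscle and pericyte markers summed to 16950 to 24300 units in mdx hearts at 8 weeks and 20030 to 23410 in control hearts. The 9 fibroblast markers summed to 22350 to 25220 in mdx hearts and 17320 to 20580 in control hearts at 8 weeks, and to 23010 to 31170 and 20650 to 21340 at 10.5 months, so the mdx sums were higher at both ages. Their largest term was Dcn, at 15050, 11080 and 7294 units in mdx hearts at 8 weeks, against 7305, 10190 and 7562 in control hearts. None of the 9 markers passed at either age (smallest limma adjusted p = 0.406 at 8 weeks and 0.349 at 10.5 months). The 10 macrophage markers summed to 10880 to 16250 in mdx hearts and 8889 to 12330 in control hearts at 10.5 months. The 8 atrial markers summed to 12950 to 13930 in mdx hearts and 5678 to 7824 in control hearts at 8 weeks, and to 12970 to 19720 and 6417 to 24780 at 10.5 months. Most of these sums was Nppa, at 9769 to 11200 units in mdx hearts at 8 weeks and 10870 to 17080 at 10.5 months. Of the 8 markers, 6 had negative differences at 10.5 months (median -0.75), where the Myl7 and Sln signals of control replicates 1 and 2 stood apart. With the level of 3 atrial genes (Myl7, Myl4 and Sln) as a covariate, 8 of the 10 endothelial differences were negative at 8 weeks (median -0.13) and 9 at 10.5 months (median -0.22). The part of the other cells in the endothelial values was not tested.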

How the data were processed

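Total RNA of mouse heart was measured on 12 arrays. The authors deposited linear intensity, brought beforehand to a common level, since the trimmed mean (2% off each end) was 1500.6 to 1500.9 throughout. The protocol is Affymetrix's standard one, per the labels. Which software summarised the probes is not given in the sources used here. All columns had a sample. In the platform annotation 20393 probe sets have 1 gene, 691 several and 1606 none.

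The trimmed mean of all arrays was set to 500, and log2(signal + 32) was used, so a difference understates the change of dim genes. Without the 64 control probe sets, 14932 probe sets averaging at least 100 scaled units were tested with limma 3.58.1 in R 4.3.3 (lmFit and eBayes, a mean per group over 12 arrays, 8 residual and 5.2 prior degrees of freedom), with Benjamini-Hochberg adjustment over all of them. The number of arrays limits the precision. The fit was tested on simulated data. Median SDs within groups were 0.25 and 0.20 for mdx and control hearts at 8 weeks, and 0.19 and 0.15 at 10.5 months.

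The 10 genes and the lists (6 of related genes, 11 of cell types) were chosen with earlier results of these data known. All 10 genes are named; from each list of related genes, called genes or otherwise the gene with the smallest p-value; and the 5 genes most like the mean of the 10. Markers of other cells are named where called in mdx against control hearts at 8 weeks (Acta2 and Smtn) or with age in mdx hearts (8 genes). These, with Myl7, Sln, Nppa, Pf4 and Dcn, were chosen after their values were seen. The labels do not say whether mdx and control arrays were paired, and the main fit has no pairing. Deviations of same-numbered arrays correlated at -0.13 to 0.14, against -0.29 to 0.25 for differently numbered ones. With 3 arrays a group these values cannot exclude pairing. Alternatives were another offset or a floor, quantile normalization, other filters, subsets of arrays, blocks, an atrial covariate, probe set means, array weights and leaving out each array.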

Additional observations from a re-analysis of the deposited data

How the results depend on the processing

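In mdx against control hearts, 0 of the 10 genes were called at either age under all 23 alternatives (adjusted p of the nearest gene 0.0792 to 0.257 at 8 weeks and 0.118 to 1 at 10.5 months), the replicate block included, where the smallest was 0.171 and 0.618 and which could not be fitted for age. Leaving out both control arrays of high atrial signal at 10.5 months, a further setting chosen after seeing the data, also gave 0 (smallest adjusted p = 0.984), with a median of -0.198. The median of the 10 genes ran from -0.22 to 0.01 at 8 weeks and from -0.31 to -0.16 at 10.5 months when single arrays were left out. Tie1 stayed between -0.54 and -0.43 at 8 weeks and between -0.40 and -0.23 at 10.5 months. In mdx hearts, 10.5 months against 8 weeks, 1 gene was called (Flt1). With offset 16, floor 64, no filter, only the 6 arrays compared, the atrial covariate and array weights it was 0. Quantile normalization, a mean signal of at least 200 and the block by signal range gave 2 (Flt1 and Vwf), averaging each gene over its probe sets gave 1 (Vwf, adjusted p = 0.0468, and not Flt1), and leaving out single arrays gave 0 to 2. Some estimates near 0 changed sign, and the cause was not tested. At 8 weeks these were Vwf, 0.003 with quantile normalization and 0.056 with the range block (-0.176 to 0.085 leaving out single arrays), Flt1, -0.081 with the mean of its probe sets and -0.025 with array weights (-0.044 to 0.164), and Cdh5, 0.028 with the atrial covariate (-0.203 to 0.134). Leaving out single arrays at 8 weeks also turned Kdr (-0.205 to 0.03), Pecam1 (-0.281 to 0.016) and Nos3 (-0.133 to 0.068). At 10.5 months these were Kdr, 0.014 with array weights (-0.163 to 0.074), and Pecam1, 0.017 with quantile normalization and 0.041 with the atrial covariate (-0.086 to 0.052). The medians of the lists, Dmd and the called list genes were followed through alternatives chosen after seeing the data. Dmd had an adjusted p below 0.05 in 22 of 23 at 8 weeks and 19 of 23 at 10.5 months.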

Other observations

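In mdx hearts, genes of the related lists also differed between the ages. In control hearts no gene of these lists passed between the ages. None passed for the change of the mdx difference with age either (smallest limma adjusted p = 0.0854, Jag1), so no age change was shown to be particular to mdx hearts. Of the 34 further endothelial genes 24 rose with age in mdx hearts (median 0.088) and 21 in control hearts (median 0.085). At 10.5 months against 8 weeks in mdx hearts, Lmo2, a transcription cofactor of blood and vessel development, rose to 1018 ± 197 units against 580 ± 150 (SD, n = 3 each; log2 difference 0.79 ± 0.19, limma adjusted p = 0.0206). Mcam rose to 381 ± 21 against 232 ± 43.6 units (0.66 ± 0.16, limma adjusted p = 0.0223), and Car4, a carbonic anhydrase of capillary endothelium, fell to 393 ± 42.1 against 693 ± 236 units (-0.73 ± 0.20, limma adjusted p = 0.0351). These 3 were the called genes among the 34 further endothelial genes, and Lmo2 passed in 17, Mcam in 16 and Car4 in 15 of 22 alternatives. Leaving out mdx replicate 1 at 8 weeks or mdx replicate 2 at 10.5 months ended each of these 3 calls. Lyve1, a receptor of lymphatic endothelium and of some macrophages, rose to 735 ± 90.7 against 382 ± 54.8 units (0.89 ± 0.22, limma adjusted p = 0.0238), and passed in 17 of 22. Jag1 fell to 119 ± 45.9 against 352 ± 63.3 units (-1.39 ± 0.25, limma adjusted p = 0.00729) and passed in all 22 alternatives. Notch4 fell by 0.80 ± 0.23 (limma adjusted p = 0.042) and passed in 9 of 22.

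In the pathway lists, Id1, a target of BMP signals, rose by 0.59 ± 0.15 (limma adjusted p = 0.0239), the only call among 12 genes of endoglin and BMP signalling, and passed in 17 of 22 alternatives. Without mdx replicate 1 or 2 at 8 weeks or mdx replicate 3 at 10.5 months, the Id1 call was lost, as was that of Lyve1 without these or mdx replicate 2 at 10.5 months. Epas1 fell by 1.39 ± 0.40 (limma adjusted p = 0.0435), the only call among 12 genes of the VEGF and angiopoietin system, and passed in 8 of 22 alternatives. Nos1, the neuronal nitric oxide synthase, which dystrophin anchors in skeletal muscle, fell to 91.2 ± 28.7 against 182 ± 12.1 units (-0.82 ± 0.18, limma adjusted p = 0.014), the only call among 8 genes of the nitric oxide pathway. Nos1 is a dim gene here, with a later mean below the 100 units asked of the mean over all arrays. It passed in 19 of the 21 alternatives that tested it. Jup fell by 0.70 ± 0.15 (limma adjusted p = 0.0135), the only call among 13 genes of junctions and adhesion, and passed in 21 of 22. Of all genes, 11.3% were called in this comparison. Markers of other cells were also called between these ages. Of 9 fibroblast markers, Dpt, Lum and Mfap5 rose by 1.05, 1.17 and 1.27 and passed in all 22 alternatives. Over the list 6 differences were positive and 3 negative in mdx hearts, with a median of 0.20. In control hearts 7 were positive and 2 negative, with a median of 0.41, and none passed. The endocardial marker Npr3 rose by 0.80 in mdx hearts and passed in 16 of 22. In control hearts it rose by 1.01 ± 0.20 with every later array above every earlier one, but did not pass (limma adjusted p = 0.0625). In mdx hearts the leukocyte marker Laptm5 fell by 0.69, the platelet markers Gp1bb and F2rl2 by 0.58 and 0.70, and the ventricular marker Ryr2 by 0.92. These passed in 9, 10, 10 and 16 of 22. Of the 5 tested leukocyte markers 3 had positive and 2 negative differences in mdx hearts, with a median of 0.008. Of the 7 tested platelet and megakaryocyte markers 4 were positive and 3 negative, with a median of 0.04. All 8 ventricular differences were negative in mdx hearts (median -0.41) and in control hearts (median -0.26). The ventricular sums of mdx replicates 1, 2 and 3 at 8 weeks were 433300, 297600 and 138000 units, against 167900 to 217100 in mdx hearts at 10.5 months. Of these 8-week arrays, replicates 1 and 2 were of the wide class. The part of these cells in the endothelial values was not tested.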
